A study of Mus musculus with 30 samples.

Results

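The 43 genes described here are type I interferon response genes of the mouse, taken by symbol from a fixed list and matched to the Ensembl identifiers of the count tables. All 43 were found among the 54532 genes of the tables, each under 1 identifier. The annotation calls 42 of them protein-coding and Mx2 a polymorphic pseudogene. By role they comprise 5 sensors of foreign RNA or DNA, 4 signal transducers, 4 members of the IFIT family, 6 of the OAS family, 4 GTPases and radical or nucleotide enzymes, 6 genes of ISG15 conjugation and ubiquitin ligation, 5 PARP and nuclear proteins, 3 membrane proteins and 6 other effectors. All 43 had enough counts to be tested in every comparison.

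RNA came from platelets and from peripheral blood mononuclear cells (PBMCs) of female C57BL/6 mice, whose blood was taken on day 14 after a subcutaneous injection in 100 µl of HBSS (a balanced salt solution) into the right flank. C group received HBSS alone. S group received 2000 B16F10 cells, a mouse melanoma line, and showed no visible tumor at autopsy. O group received 100000 B16F10 cells and carried large tumors. Each group had 5 libraries per tissue, 30 in all, numbered C1 to C5, S1 to S5 and O1 to O5 below. A library is a pool of 3 to 5 mice in O group, 4 to 10 in S group and 5 to 10 in C group by the sample records, so that every SD within a group is a spread between 5 pools. S group and O group differ in the number of cells given and not in time. By the study's own account S group included mice that might never have formed a tumor. In the study's growth experiments most mice given 2000 cells stayed free of visible tumors. PBMCs were taken from the blood left after platelets were removed, and O group pools hold equal numbers of mice in both tissues, so libraries of the tissues may share mice. All mice were of 1 sex and strain and the tumor cells of 1 line, which limits what the groups stand for.

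Type I interferons are secreted cytokines that bind a receptor made of IFNAR1 and IFNAR2. The kinases JAK1 and TYK2 then act on STAT proteins, which join IRF9 in the complex ISGF3, and this complex binds the interferon-stimulated response element in the promoters of its target genes. The targets code for sensors, nucleases and translation blockers that act against viruses, and blood leukocytes are known to express many of them at rest.

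Counts on genes ran from 12259036 to 25360080 per platelet library and from 13390983 to 15973449 per PBMC library. Levels below are CPM, counts scaled to library size with TMM factors within a tissue unless stated. PBMC S3 stood apart from the other PBMC libraries. It had a count on 32900 genes against 20540 to 22991 in the other 14, and 7034 genes were counted in it alone, with 0.106% of its counts. Both tissues carried RNA of red cells. The summed level of 8 erythroid markers (among them 4 globins and Alas2, the first enzyme of heme synthesis in red cells), each counted in every library, ran in platelets over 55390.0 to 338200.0 CPM in C group, 91750.0 to 239200.0 CPM in S group and 46110.0 to 688800.0 CPM in O group. In PBMCs it ran over 29580.0 to 92580.0, 30570.0 to 83220.0 and 61410.0 to 482900.0 CPM. The 12 platelet and megakaryocyte markers were counted in every library of both tissues, and leukocyte markers were counted in platelet libraries too. In such mixtures, fewer cells of a type and less RNA per cell cannot be told apart.

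The response element was looked for in the promoters because the members were listed as targets of this pathway. A RefSeq promoter of 300 bases (250 before and 50 after the start site, GRCm38.p6) was at hand for 32 of the 43 members. The core searched was GAAA, any 2 bases and GAAA, on both strands with overlapping matches kept. It was found in 17 of these 32 members (53.1%), against 1079 of the 27025 genes with a promoter (3.99%). In the 250 bases before the start it was found in 13 of the 32 (40.6%) and in 936 of the 27025 genes (3.46%). The windows of 6 members whose values are described below are printed 5′ to 3′ on the gene's own strand, with the matches on either strand in capitals. None of the 6 overlaps an exon of the GENCODE annotation.
Isg15, chr4:156200850-156200921, minus strand: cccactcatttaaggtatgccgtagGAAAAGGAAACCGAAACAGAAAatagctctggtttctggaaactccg
Rsad2, chr12:26456538-26456597, minus strand: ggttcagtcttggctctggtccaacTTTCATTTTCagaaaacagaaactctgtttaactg
Oas3, chr5:120777700-120777759, minus strand: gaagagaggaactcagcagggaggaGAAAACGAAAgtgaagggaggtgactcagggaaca
Ifit1, chr19:34640760-34640838, plus strand: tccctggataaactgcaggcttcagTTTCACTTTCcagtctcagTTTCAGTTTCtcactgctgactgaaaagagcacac
Ifit3, chr19:34583348-34583441, plus strand: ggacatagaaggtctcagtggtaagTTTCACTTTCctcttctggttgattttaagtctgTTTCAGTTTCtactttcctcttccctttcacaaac
Ifit3b, chr19:34607744-34607837, plus strand: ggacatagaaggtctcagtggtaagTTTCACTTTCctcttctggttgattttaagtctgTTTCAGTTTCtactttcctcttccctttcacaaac
The Isg15 window holds 3 overlapping matches, those of Ifit1, Ifit3 and Ifit3b hold 2 each, and those of Rsad2 and Oas3 hold 1. The windows of Ifit3 and Ifit3b differ at 0 of 94 positions. A match describes the letters, and binding was not measured.

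The transcripts of some members are alike as well. Of all 50-base words in the Ifit3 transcripts, 51.2% also occur in those of Ifit3b, where they make up 44.5% of the words. For Oas1a and Oas1g the shares were 57.6% and 45.2%. How reads were split within each of these pairs is therefore uncertain, and so are their values.

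Every member was expressed in both tissues, and the same 5 genes led the order of mean levels per kilobase of transcript (mean ± SD over 15 libraries, CPM per kb). In PBMCs the highest were Ifitm3, which hinders the entry of viruses through membranes, at 601 ± 109 CPM per kb and Ifi27l2a, a small hydrophobic protein, at 456 ± 112 CPM per kb. Isg15, a ubiquitin-like protein that is attached to other proteins, followed at 361 ± 664 CPM per kb, Ly6e, a lipid-anchored surface protein, at 321 ± 26.6 CPM per kb and Rsad2 (viperin), which makes a chain-terminating nucleotide, at 143 ± 346 CPM per kb. The medians of Isg15 and Rsad2 in PBMCs, 69.2 and 131 CPM, lay far below their means of 273 and 619 CPM. O1 was the highest library in both, and their places in this order are those of the means. The lowest in PBMCs were Herc6, a ligase for ISG15, at 4.69 ± 0.696 CPM per kb, Phf11d at 3.04 ± 1.06 CPM per kb and Ifi44 at 2.03 ± 1.27 CPM per kb.

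In platelets the highest were Ifitm3 at 413 ± 295 CPM per kb, Isg15 at 324 ± 326 CPM per kb, Ifi27l2a at 214 ± 79.2 CPM per kb, Rsad2 at 134 ± 146 CPM per kb and Ly6e at 55.4 ± 22.1 CPM per kb. The lowest were Herc6 at 0.847 ± 0.281 CPM per kb, Phf11d at 0.842 ± 0.415 CPM per kb and Mx2, a dynamin-like antiviral GTPase, at 0.762 ± 0.238 CPM per kb. The SDs of Isg15 and Rsad2 exceeded their means in both tissues, and neighbours of either gene in these orders did not differ beyond that spread. The highest library exceeded the lowest by more than 3 times in 24 of 43 members in platelets and in 11 of 43 in PBMCs, with median ratios of 3.21 and 2.09. The median SD on the log2 scale was 0.414 for the members and 0.355 for all 13875 genes tested in platelets, and 0.267 and 0.223 (15476 genes) in PBMCs.

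The first comparison asked how the members differ between the compartments of the blood, with all 30 libraries in 1 fit and the group as covariate. At an adjusted P of 0.05 (edgeR) 22 of the 43 were lower and 6 higher in platelets, where 81% of all 16498 genes passed, 45.2% lower and 35.8% higher, so that the share of members lower was near that of all genes. With the library number within each group as a block, 30 passed, 6 higher and 24 lower, and the share of all genes in that fit was not taken. All 5 sensors were lower, namely the RNA helicases Ifih1 (MDA5), Ddx58 (RIG-I) and Dhx58 (LGP2), the nucleic acid sensor Zbp1 and the double-stranded RNA kinase Eif2ak2 (PKR), with log2 fold changes from -0.90 to -0.39. The OAS family, whose active members make the 2-5A messenger that activates RNase L, was lower in 4 of 6 members.
The IFIT family lay on the other side. Of its 4 members, which bind foreign RNA and block translation, 3 were higher in platelets, and Ifit3 was at 0.32 (SE 0.19, adjusted P = 0.121). Of the genes listed as signal transducers, Stat2 was lower at -1.06 (SE 0.10, adjusted P = 6.96e-11) and the other 3 did not pass. The remaining members higher in platelets were Rsad2, Isg15 and Ifitm3. Rsad2 and Isg15 rose with the erythroid marker level within each tissue, as described below, and its part in this comparison of tissues was not tested.

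**Figure D1:**
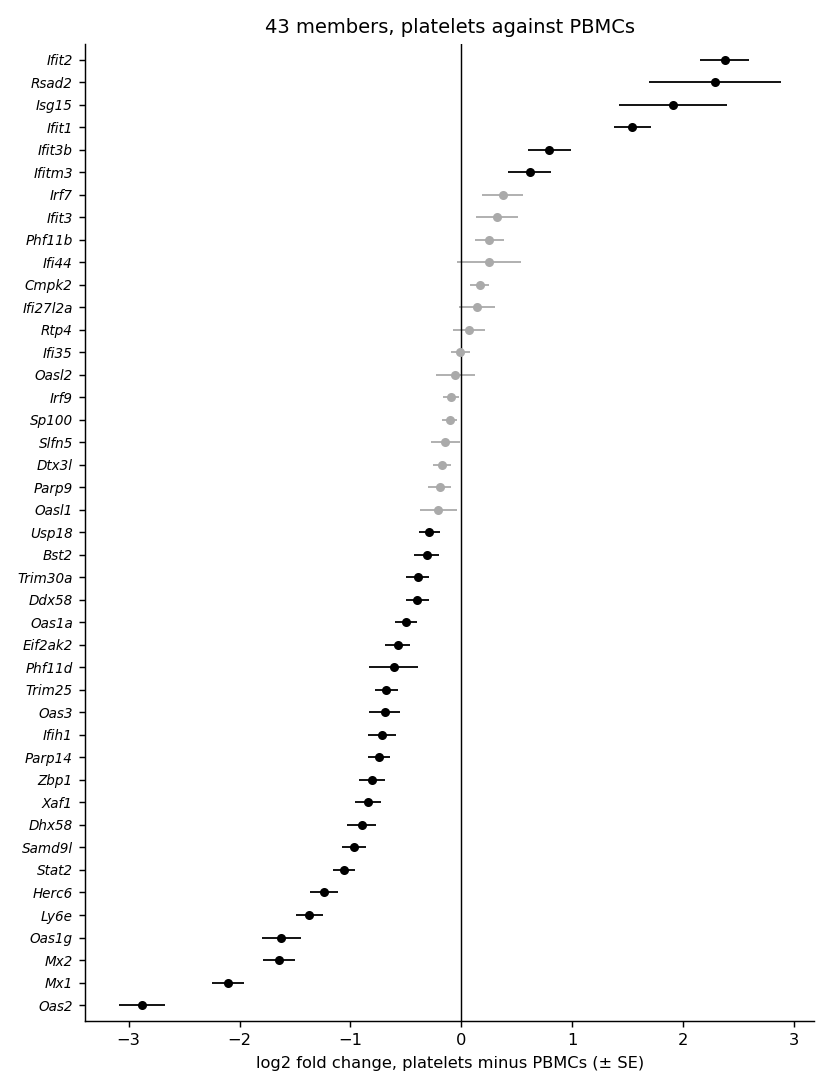
Log2 fold change of each of the 43 members, platelets minus PBMCs, with bars of 1 SE (edgeR, 15 libraries per tissue), ordered by size. Black points passed an adjusted P of 0.05 and grey points did not, and the ends of the order are Ifit2 at 2.38 and Oas2 at -2.88.

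Ifit2 stood at 250.3 ± 119 CPM in platelets against 46.3 ± 11.5 CPM in PBMCs (SD, n = 15, scaled over both tissues), a log2 fold change of 2.38 (SE 0.22, adjusted P = 2.35e-11). It was followed by Rsad2 at 2.29 (SE 0.60, adjusted P = 0.000882), Isg15 at 1.91 (SE 0.49, adjusted P = 0.000737), Ifit1 at 1.54 (SE 0.17, adjusted P = 7.19e-10) and Ifit3b at 0.80 (SE 0.20, adjusted P = 0.000485). At the other end, Oas2 stood at 19.8 ± 11.98 CPM in platelets against 135 ± 24.4 CPM in PBMCs, a log2 fold change of -2.88 (SE 0.21, adjusted P = 1.18e-13). The GTPase Mx1 was at -2.11 (SE 0.14, adjusted P = 2.84e-14), Mx2 at -1.64 (SE 0.14, adjusted P = 1.04e-11), Oas1g at -1.62 (SE 0.18, adjusted P = 1.18e-09) and Ly6e at -1.37 (SE 0.12, adjusted P = 9e-12). In 7 of the 43 members, Oas2, Mx1, Mx2, Oas1g, Ly6e, Herc6 and Stat2, every platelet library lay below every PBMC library, while the tissues did not overlap in 23.3% of all genes.

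Outside the members, the type I interferon genes themselves were nearly uncounted. Over the 15 platelet libraries 5 of the 18 listed genes had any count, 9 counts in all, and 9 libraries had 0, where a count of 0 allows up to 3 counts in a library. In PBMCs 11 of the 18 had a count, 78 in all, with at most 17 in 1 library. Interferon gamma, the type II ligand, had 13 to 150 counts per PBMC library and 0 to 21 per platelet library. Of the 7 receptor and kinase genes of the pathway, Jak1 and Jak2 were higher in platelets and 5 were lower, among them Ifnar1 at -1.96 (SE 0.14, adjusted P = 9.08e-14) and Ifnar2 at -0.87 (SE 0.15, adjusted P = 3.94e-06).

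The next comparisons asked whether the interferon response genes of platelet RNA differ among mice given few tumor cells, mice with large tumors and mice given none. Few members passed an unadjusted P of 0.05. The threshold is that of the study, whose methods do not say whether it was set on the adjusted or the unadjusted P. Between S group and C group 1 of 43 passed (Ly6e, higher in S group), against 6.42% of all genes (4.29% higher). Between S group and O group 5 passed, 1 higher and 4 lower in S group, against 13.9% of all genes (7.23% higher and 6.67% lower). Between O group and C group 1 passed (Eif2ak2, higher in O group), against 4.79% of all genes (2.61% higher). With adjustment none of the 43 passed in edgeR, where 0.00754%, 0% and 0% of all genes did, or in voom with quality weights, and DESeq2 called 0, 1 (Ly6e) and 0 members. The groups overlapped in each of the 43 members, while they did not overlap in 1.12%, 3.59% and 0.904% of all genes. The comparisons share libraries, and each is given by itself.

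Ly6e (GRCm38 chr15:74955051-74959905, plus strand) stood at 340.3, 248, 349, 197 and 357 CPM in S group, at 243, 144, 214, 175 and 181 CPM in C group and at 122, 109, 199.7, 109 and 157 CPM in O group. Of the 5 S group libraries 4 lay above every library of the other groups, and S4 lay within the range of both. The means were 298 ± 71.8, 191 ± 38.001 and 139 ± 39.04 CPM (SD, n = 5) in S, C and O group. In edgeR the log2 fold change of Ly6e was 0.65 (SE 0.22, adjusted P = 0.746) for S group against C group, 1.11 (SE 0.25, adjusted P = 0.225) against O group, and -0.48 (SE 0.23, adjusted P = 0.91) for O group against C group, by the same test across all genes. The third passed the unadjusted threshold without O3, with DESeq2 and with the replicate number as a block, and the first 2 passed it in each of the 10 fits that left out 1 library. The study put Ly6e in its qPCR panel from these same libraries, so these values are no independent evidence for that choice. The study then measured Ly6e by qPCR in a further cohort of mice, whose values are not used here. There it reported a difference of its occult tumor group from both the control and the large tumor group. It kept Ly6e in the gene signature for occult against large tumors.
Lymphocyte markers differed between the same groups, and no slope of Ly6e on them alone was fitted. Of 8 B cell markers 3 were higher in S group than in C group and 5 higher than in O group at an unadjusted P under 0.05, and of 8 T cell markers 3 and 6, with none lower. The summed B cell level was 664 to 1343 CPM in S group, 661 to 779 CPM in C group and 344 to 823 CPM in O group, and the summed T cell level 227 to 272, 201 to 246 and 97.4 to 232 CPM. With the mean leukocyte marker level as a covariate, the edgeR log2 fold change of Ly6e was 0.34 (adjusted P = 0.965) against C group, no longer past the unadjusted threshold, and 0.77 (adjusted P = 0.278) against O group.

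**Figure D2:**
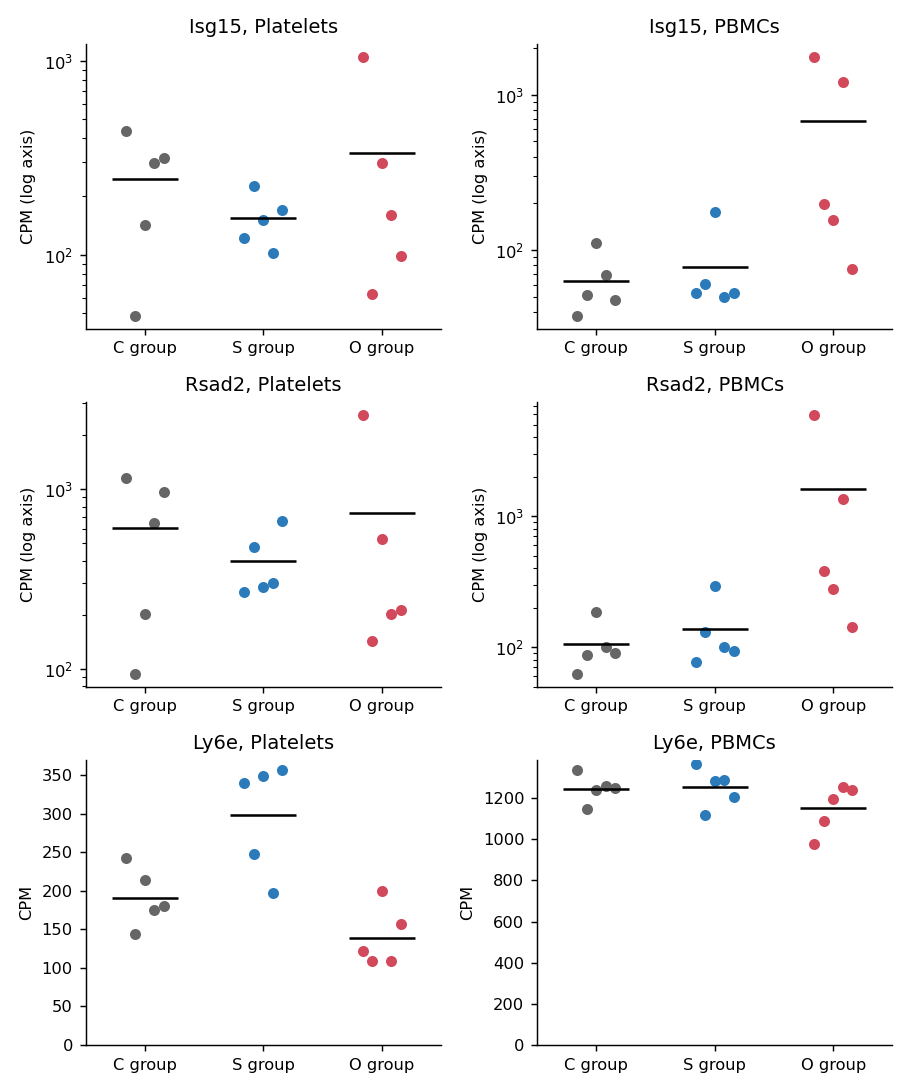
CPM of Isg15, Rsad2 and Ly6e in each of the 5 libraries per group and tissue (points), with black lines at the group means, on log axes for Isg15 and Rsad2 and on a linear axis from 0 for Ly6e. Ly6e of platelets is highest in 4 libraries of S group, and Isg15 and Rsad2 of PBMCs reach 1745 and 5918 CPM in O1.

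The 4 members lower in S group than in O group came from different roles. Oas3, of the 2-5A family, was at 34.5, 54.98, 34.04, 45.2 and 43.9 CPM in S group, at 114, 40.2, 76.7, 55.6 and 61.04 CPM in O group and at 57.1, 35.5, 46.3, 48.4 and 50.8 CPM in C group. O1 was the highest of all. S group against O group gave a log2 fold change of -0.71 (SE 0.28, adjusted P = 0.319), which was -0.44 (adjusted P = 0.343) without O1, where the unadjusted threshold was missed.
Ifitm3 (GRCm38 chr7:141009586-141010770, minus strand) was at 203, 255, 235, 153 and 133 CPM in S group, at 662, 237, 287, 832 and 126 CPM in O group and at 306, 199, 254, 169 and 151 CPM in C group. O4 and O1 stood far above the rest, and the other O group libraries lay within the range of C group or just below it. S group against O group gave -1.11 (SE 0.45, adjusted P = 0.323), which was -0.76 (adjusted P = 0.511) without O4, again short of the unadjusted threshold. For O group against C group it was 0.99 (SE 0.47, adjusted P = 0.91), which passed the unadjusted threshold without C1, O2, O3 or O5. With all libraries it passed with DESeq2, with every counted gene, with voom, with all 3 groups in 1 fit and with the erythroid covariate.
Ifit3b was at 4.20, 9.31, 5.12, 6.44 and 3.92 CPM in S group, at 7.20, 5.69, 12.05, 13.9 and 9.13 CPM in O group and at 4.67, 8.43, 12.7, 6.22 and 5.25 CPM in C group, with all groups overlapping. For S group against O group Ifit3b was at -0.71 (SE 0.30, adjusted P = 0.332) in edgeR, and its near copy Ifit3 at -0.02 (SE 0.35, adjusted P = 0.984). The other pair of near copies, Oas1a and Oas1g, was at -0.04 (SE 0.19, adjusted P = 0.935) and -0.08 (SE 0.39, adjusted P = 0.94).
Eif2ak2 was at 14.2, 17.4, 10.9, 22.4 and 18.3 CPM in S group, at 16.1, 24.1, 24.7, 22.2 and 28.6 CPM in O group and at 11.7, 13.7, 13.2, 18.3 and 20.2 CPM in C group. O group held the 3 highest libraries, while its lowest, O1, lay below C4 and C5. It was at -0.45 (SE 0.21, adjusted P = 0.356) for S group against O group and 0.55 (SE 0.19, adjusted P = 0.91) for O group against C group, both in edgeR, and the latter passed the threshold in each of the 10 fits that left out 1 library.
Ifih1, a second sensor, was at 9.08, 20.2, 9.73, 12.4 and 10.3 CPM in S group, at 12.8, 14.6, 21.6, 18.7 and 19.6 CPM in O group and at 10.9, 13.6, 17.7, 13.2 and 16.2 CPM in C group. With all libraries and edgeR fits of 2 groups it did not pass the unadjusted threshold in any of the 3 comparisons. S group against O group passed without S2 or without O1, with voom and with all 3 groups in 1 fit, S group against C group passed without S2, and O group against C group passed with voom.

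Of these calls for S group against O group, that on Oas3 was lost without S1, S3, O1 or O3, that on Ifitm3 without S1, S4, S5, O1 or O4, that on Ifit3b without S1, S3, S4, S5, O3 or O4 and that on Eif2ak2 without S1, S2, S3, O2, O3, O4 or O5 (edgeR, unadjusted threshold). With the replicate number as a block those on Oas3 and Ifitm3 were lost, at -0.62 (adjusted P = 0.485) and -0.81 (adjusted P = 0.493) in edgeR. With the leukocyte marker level as a covariate those on Ifitm3, Ifit3b and Eif2ak2 were lost, at -0.94 (adjusted P = 0.449), -0.50 (adjusted P = 0.518) and -0.37 (adjusted P = 0.527) in edgeR, and voom lost that on Ifitm3, at -0.62 (adjusted P = 0.352). The same covariate gained calls on Rsad2 at -1.32 (adjusted P = 0.365), Isg15 at -1.51 (adjusted P = 0.316) and Herc6 at -0.71 (adjusted P = 0.33), all lower in S group (edgeR). Neutrophil markers differed in the same comparison, with 5 of 8 tested lower in S group. Their sum was 189 to 325 CPM in S group, 327 to 3257 CPM in O group and 149 to 745 CPM in C group. Their part in the results was not tested by itself.

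Over all 43 members the log2 fold changes of S group against C group in platelets were 16 above and 27 below 0, with a median of -0.12, while 48% of all genes were above 0, with a median of -0.01. All 4 IFIT genes lay below 0, with none past the threshold. The split of the members moved with single libraries. It was 21 above and 22 below 0 without C3 and 8 above and 35 below 0 without S2, where Ifih1, Ifit1, Ifit3 and Oasl2 passed as lower, and without C2 Irf7, Oasl2 and Isg15 did (unadjusted threshold). For S group against O group the split was 15 above and 28 below 0 (all genes 48.4% above 0), and 23 above and 20 below 0 without O3. For O group against C group it was 20 above and 23 below 0 (all genes 49.1% above 0), with a median of -0.03 beside -0.01 for all genes, and 27 above and 16 below 0 without O2. Next after Ly6e in S group against C group came Oas2 at 0.66 (SE 0.37, adjusted P = 0.769) and Oasl2, an OAS-like protein, at -0.41 (SE 0.26, adjusted P = 0.778), neither past the threshold of edgeR. Oas2 passed without C1 or S4, with every counted gene (0.65) and with the erythroid covariate (0.85), and Oasl2 passed without C2 or S2 (unadjusted threshold). Oas2 fell to 0.22 without S5 and to 0.062 with the leukocyte covariate, and Oasl2 was at -0.27 without C1.
Among the pathway genes outside the members, Tlr9, an endosomal DNA receptor, was higher in S group than in C group at 0.97 (SE 0.30, adjusted P = 0.746) and Sting1, which relays the sensing of cytosolic DNA, at 0.57 (SE 0.23, adjusted P = 0.752), which made 2 of 11 upstream adaptors and sensors. Of 35 other interferon-stimulated genes 1 passed, Shisa5 at 0.42 (SE 0.18, adjusted P = 0.769), where 6.42% of all genes passed. Against O group, S group was higher in Sting1 (1.09), Tlr9 (0.91), the kinase Ikbke (0.56), the transcription factor Irf3 (0.51), Gbp8 (0.69), Oas1b (0.83) and Shisa5 (0.77). It was lower in the adaptor Myd88 (-0.30), in Ifitm2 (-1.08) and in Ifitm1 (-1.68), both relatives of Ifitm3. These made 4 of the 11 upstream adaptors and sensors, 1 of the 16 GBP and IRG GTPases tested and 4 of the 35 other interferon-stimulated genes, where 13.9% of all genes passed.
Between O group and C group Sting1 was lower at -0.55 (SE 0.22, adjusted P = 0.91) and Ifitm1 higher at 1.57 (SE 0.67, adjusted P = 0.91), which made 1 of 11 and 1 of 35 where 4.79% of all genes passed. In platelets 0 of the 7 receptors and kinases and 0 of the 5 brakes passed an unadjusted P of 0.05 in any of the 3 edgeR comparisons.

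**Figure D3:**
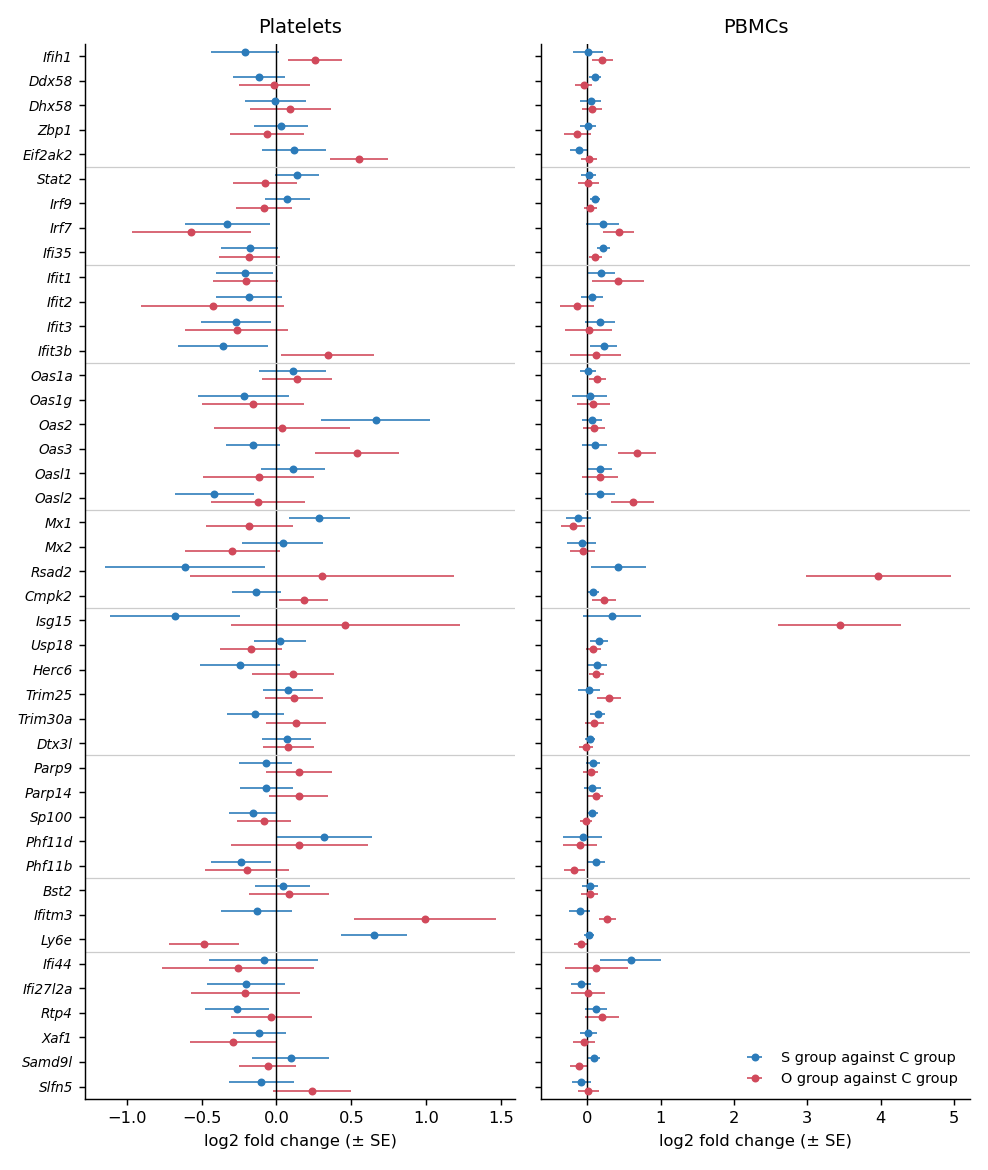
Log2 fold changes (edgeR, bars of 1 SE) of the 43 members for S group (blue) and O group (red) against C group, in platelets and in PBMCs, ordered by role with grey lines between roles. In PBMCs Rsad2 (3.97) and Isg15 (3.44) of O group stand far to the right of the other members.

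The same comparisons were made in PBMCs. Between S group and C group 1 of 43 members passed an unadjusted P of 0.05 (Ifi35, higher in S group), against 2.64% of all genes (1.23% higher). Without S3 it was not Ifi35 but 3 others that passed, Mx1, Phf11d and Ifi27l2a, all lower in S group. Between S group and O group 3 passed, all lower in S group, against 12.2% of all genes (7.8% lower), and 6 without S3, again all lower, with Ifih1, Irf7 and Oas3 added. The share of all genes was not taken for the fits without S3. Between O group and C group 4 passed, all higher in O group, against 11.9% of all genes (7.56% higher). With adjustment none of the 43 passed in edgeR, where 0.033%, 0% and 0% of all genes did, or in voom with quality weights, and DESeq2 called 0, 2 and 2 members, Isg15 and Rsad2 in both. The groups overlapped in all 43 members, while they did not overlap in 0.806%, 1.93% and 1.88% of all genes.

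Isg15 was at 37.99, 51.4, 111, 69.2 and 47.6 CPM in C group, at 52.8, 60.3, 177, 50.1 and 53.003 CPM in S group and at 1745, 199, 157, 1209 and 75.3 CPM in O group. Rsad2 was at 62.5, 87.6, 186, 99.6 and 89.5 CPM in C group, at 77.5, 131, 292, 100.3 and 93.05 CPM in S group and at 5918, 378, 279, 1347 and 142 CPM in O group. In both genes O1 and O4 stood far above the other O group libraries, O2 and O3 lay above all of C group, and O5 lay within the range of C group.
For O group against C group the log2 fold change was 3.44 (SE 0.84, adjusted P = 0.337) for Isg15 and 3.97 (SE 0.99, adjusted P = 0.337) for Rsad2 (edgeR). The means were 677 ± 756 against 63.4 ± 28.8 CPM and 1613 ± 2453 against 105 ± 47.2 CPM (SD, n = 5), with the SD of O group above its mean in both genes. For S group against O group the log2 fold changes were -3.11 (SE 0.86, adjusted P = 0.296) and -3.55 (SE 0.99, adjusted P = 0.296) in the same kind of fit. Without O1 these were -2.39 and -1.96. Without both O1 and O4 Isg15 was at -0.87 (adjusted P = 0.618), no longer past the unadjusted threshold, while Rsad2, at -0.95 (adjusted P = 0.592), still passed it. Blocking on the library number ended the call on Rsad2, at -2.21 (adjusted P = 0.37) (edgeR). In voom with quality weights, Isg15 and Rsad2 were at -1.71 and -1.63 for S group against O group and at 2.00 and 2.07 for O group against C group.
Without O1 the log2 fold change of O group against C group was 2.71 (adjusted P = 0.403) for Isg15 and 2.37 (adjusted P = 0.403) for Rsad2, and without both O1 and O4 it was 1.20 (adjusted P = 0.495) and 1.36 (adjusted P = 0.495) (edgeR). In that last fit Isg15, Rsad2 and the ubiquitin ligase Trim25 passed the unadjusted threshold.

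Erythroid markers moved with both genes. All 8 were higher in O group than in C group at an unadjusted P under 0.05, with log2 fold changes from 1.19 to 5.32, and all 8 were lower in S group than in O group. The mean of log2(CPM + 1) over the 8 was at most 10.7 in C group and lay above that in 4 of the 5 O group libraries, with 14.2 in O1 and 12.8 in O4. Other markers stood apart in these libraries too. O1 and O4 had the highest levels, by the same measure, of platelet and megakaryocyte markers (9.17 and 8.53, with at most 8.20 in the other 13) and of neutrophil markers (8.69 and 7.74, with at most 7.18). Of 8 T cell markers 7 and of 7 NK cell markers 2 were lower in O group than in C group at an unadjusted P under 0.05. The part of each of these marker lists by itself was not tested. The slope of each gene on the erythroid marker level was then taken over the 15 libraries of a tissue, with group in the same edgeR fit, a comparison chosen after the data were seen.
In PBMCs the slope was 1.23 (SE 0.12, adjusted P = 9.52e-06) for Rsad2 and 1.14 (SE 0.15, adjusted P = 0.000192) for Isg15, in log2 units per unit of the marker level. These were the 2 of 43 members past an adjusted P of 0.05, against 4.93% of all genes. In platelets the slope was 1.04 (SE 0.0856, adjusted P = 3.42e-07) for Rsad2 and 0.90 (SE 0.0786, adjusted P = 6.4e-07) for Isg15. There 6 members passed, against 6.32% of all genes, the others being Oas2 (0.47), Oasl2 (0.32) and Oas3 (0.29) with positive slopes and Ifit2 with a negative one, -0.44 (SE 0.12, adjusted P = 0.0433). The slopes of Rsad2 and Isg15 passed in every fit that left out 1 library, in both tissues. In platelets the slope of Oas2 was lost without C1, O1, O2 or O4, that of Oasl2 without C2 or O2, that of Oas3 without O1 and that of Ifit2 in 9 of the 15 fits, with the smallest size, -0.26 (adjusted P = 0.829), without O1.
Isg20, an interferon-stimulated RNase outside the members, had slopes of 0.75 (SE 0.0721, adjusted P = 1.72e-06) in platelets and 0.93 (SE 0.0506, adjusted P = 2.07e-08) in PBMCs, and for O group against C group in PBMCs it was at 2.69 (SE 0.63, adjusted P = 0.337) in edgeR.

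**Figure D4:**
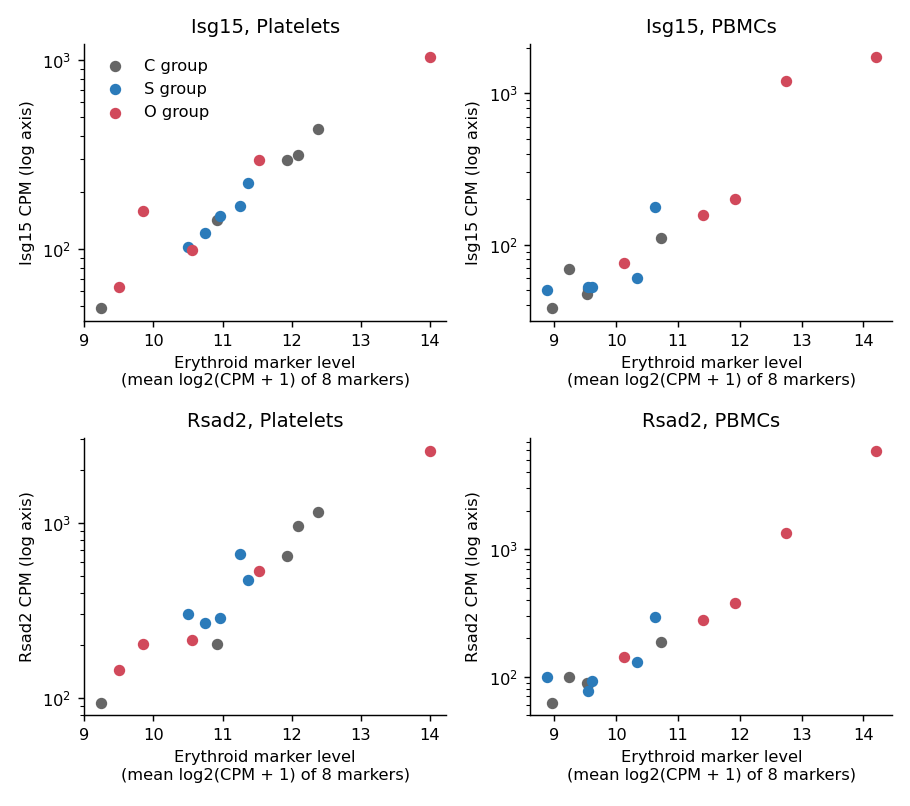
Isg15 and Rsad2 (CPM, log axis) against the erythroid marker level (mean log2(CPM + 1) of 8 markers) in the 15 libraries of each tissue, coloured by group. O1 has the highest marker level and the highest Isg15 and Rsad2 in both tissues, 1047 and 2583 CPM in platelets and 1745 and 5918 CPM in PBMCs.

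With the erythroid level as a covariate, edgeR gave for O group against C group in PBMCs -0.27 (adjusted P = 0.985) for Isg15 and -0.43 (adjusted P = 0.983) for Rsad2, and 0 of the 43 members passed the unadjusted threshold. Few libraries of O group and C group overlap in that level, so this fit has little to separate the 2.
In platelets neither gene passed in any comparison of groups with all libraries and no covariate under the count filter used, while both passed as lower in S group than in O group with the leukocyte covariate, and Isg15 passed as lower in S group than in C group without C2 or with every counted gene and than in O group without O2. Isg15 was at 433, 48.6, 142, 297 and 315 CPM in C group, at 122, 225, 151, 102 and 170.1 CPM in S group and at 1047, 62.8, 297, 160.0 and 99.1 CPM in O group. Rsad2 was at 1148, 93.8, 203, 647 and 961 CPM in C group, at 268, 474, 286, 300.2 and 666 CPM in S group and at 2583, 144, 529, 203 and 214 CPM in O group. In both genes the lowest library of all was C2, and S group lay within the range of C group.

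Oas3 and Ifitm3 were the other members higher in O group than in C group in PBMCs. Oas3 was at 165, 147, 166, 181 and 181 CPM in C group, at 126, 146, 261, 195 and 161 CPM in S group and at 404, 153, 223, 368 and 170.3 CPM in O group, highest in O1 and O4. Against C group O group was at 0.67 (SE 0.26, adjusted P = 0.379) in edgeR and at 0.13 (adjusted P = 0.707) without these 2 libraries. The call was also lost without C2, O1 or O4 alone and in voom with quality weights.
Ifitm3 was at 364, 354, 360.2, 462 and 429 CPM in C group, at 355, 317, 477, 271 and 385 CPM in S group and at 465, 461, 469, 554 and 390.0 CPM in O group, where 3 of the 5 libraries lay above all of C group. The log2 fold change was 0.27 (SE 0.11, adjusted P = 0.39) against C group and -0.39 (SE 0.16, adjusted P = 0.372) for S group against O group (edgeR). The first call was lost without C1, C2, C3, O1, O2, O3 or O4 and the second without S1, S2, S4, O3 or O4. With all 3 groups in 1 fit the first was lost as well.
Oasl2 was at 159.8, 124, 142, 166 and 156 CPM in C group, at 121, 109.7, 226, 235 and 139.7 CPM in S group and at 302, 116, 182, 388 and 142 CPM in O group. It was highest in O4 and O1 and, with all libraries in edgeR, did not pass the unadjusted threshold in any comparison. O group against C group passed without O2 or without O5, with the leukocyte covariate, with DESeq2 and with every counted gene.

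Ifi35, a partner of NMI in interferon signalling, was at 53.8, 40.5, 51.1, 45.1 and 43.3 CPM in S group, at 45.3, 39.7, 38.2, 37.3 and 43.01 CPM in C group and at 49.6, 35.97, 40.98, 44.7 and 44.4 CPM in O group. S group against C group gave 0.22 (SE 0.0917, adjusted P = 1) in edgeR, and the call was lost without C2, C3, C4, S1 or S3. Irf9, the DNA-binding part of ISGF3, was at 0.10 (SE 0.0652, adjusted P = 1), Ifi44 at 0.59 (SE 0.42, adjusted P = 1) and Ly6e at 0.02 (SE 0.0744, adjusted P = 1) in this comparison. Without S3 the value of Ifi44 was 0.01 (adjusted P = 1). With the pool number as a replicate block 3 members passed in place of 1, all higher in S group, namely Ifi35 at 0.21 (adjusted P = 0.999), Ifi44 at 0.44 (adjusted P = 0.999) and Rsad2 at 0.34 (adjusted P = 0.967) (edgeR). The share of all genes that passed with the block was not taken.
The side on which the members lay in S group against C group turned with S3. With all libraries 36 above and 7 below 0 were counted, with a median of 0.07 (all genes 54.1% above 0, median 0.01). Without S3 they were 18 above and 25 below 0, with a median of -0.058 (all genes 53.5% above 0). Outside the members, 0 of the 7 receptors and kinases, 11 upstream adaptors and sensors, 5 brakes, 17 GBP and IRG GTPases and 35 other interferon-stimulated genes passed an unadjusted P of 0.05 in edgeR.
For O group against C group the split of the members was 31 above and 12 below 0 (all genes 50.3% above 0), and 15 above and 28 below 0 without O4. Outside the members, Isg20, Ifitm2 (0.54, SE 0.23, adjusted P = 0.386) and Jak2 (0.15, SE 0.065, adjusted P = 0.398) were higher in O group, and Ikbke (-0.22, SE 0.0867, adjusted P = 0.379) and Gbp8 (-0.22, SE 0.099, adjusted P = 0.412) were lower. For S group against O group Isg20, Ifitm2 and Ifngr1 were lower, and Ikbke, Gbp8, Tgtp1, Trim21, Trim34a and Phf11c were higher, with log2 fold changes between -2.49 and 0.73. In these 2 comparisons 2 and 5 of the 35 other interferon-stimulated genes, 1 and 2 of the 17 GBP and IRG GTPases, and in each 1 of the 7 receptors and kinases and 1 of the 11 upstream adaptors and sensors passed, where 11.9% and 12.2% of all genes did.

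Libraries of the same group differed from each other in many members at once. Each S group and O group library was set beside the 5 C group libraries of its tissue, and the members above all 5 or below all 5 were counted, as a description with no test. In PBMCs S3 held 38 of 43 members (88.4%, all genes 12.9%) above all of C group, O4 held 36 of 43 members (83.7%, all genes 23.4%) and O3 24 of 43 members (55.8%, all genes 16.3%), with 0 below in all 3. In S3 this came with the larger number of genes counted given above, whose part was not tested.
Other PBMC libraries lay on the opposite side. Below all of C group were 30 of 43 members (69.8%, all genes 26.1%) in O2, 27 of 43 members (62.8%, all genes 36.4%) in O1, 23 of 43 members (53.5%, all genes 24.7%) in S1 and 20 of 43 members (46.5%, all genes 13.9%) in S2. O1 at the same time held 10 of 43 members (23.3%, all genes 28.5%) above all of C group, Isg15 and Rsad2 included. S4 held 15 of 43 members (34.9%, all genes 19.1%) above and 11 of 43 members (25.6%, all genes 19.8%) below. S5 held 4 of 43 members (9.3%, all genes 11.2%) above and 0 of 43 members (0%, all genes 8.87%) below, and O5 held 1 of 43 members (2.33%, all genes 13.1%) above and 2 of 43 members (4.65%, all genes 14%) below.

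**Figure D5:**
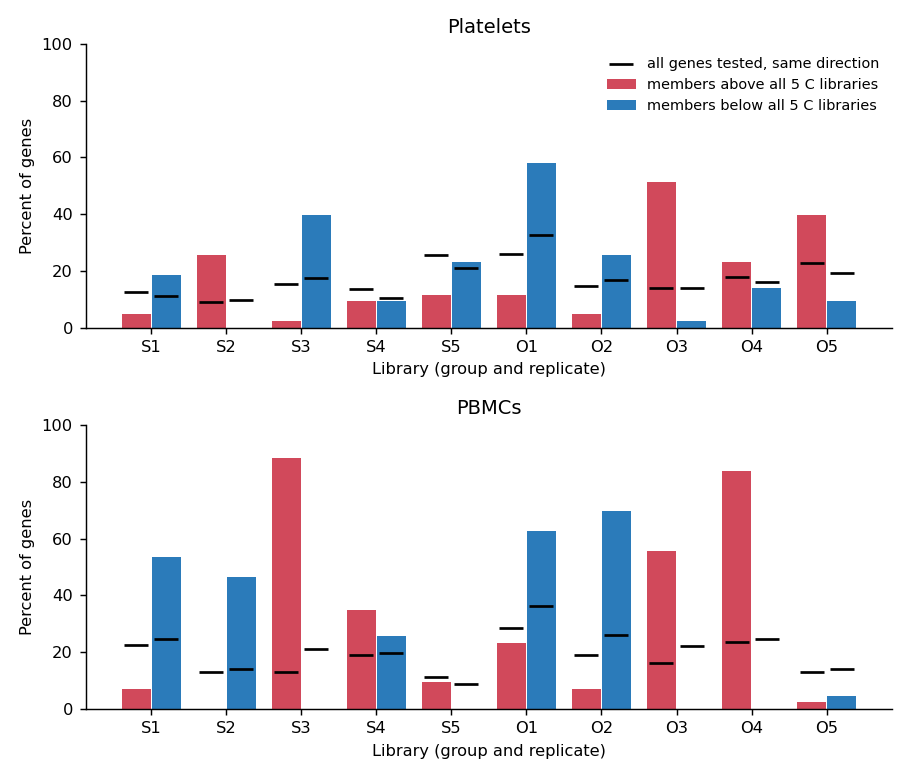
Percent of the 43 members in each S group and O group library that lay above (red) or below (blue) all 5 C group libraries of the tissue, with black marks for the percent of all tested genes. In PBMCs S3 and O4 reach 88.4% and 83.7% above, and O2 and O1 69.8% and 62.8% below.

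S3 held the highest value of 18 of the 43 members over the 15 PBMC libraries and O4 of 16. Among the 18 were Irf7, a transcription factor of the interferon response, at 528 CPM beside 216 CPM in the lowest library, Ifi44 at 35.996 beside 3.15 CPM, and the sensors Ifih1 at 85.6 beside 35.01 CPM and Ddx58 at 176 beside 101 CPM. Among the 16 were Ifit1 at 84.01 beside 19.8 CPM and Ifit3 at 109 beside 27.4 CPM. O1 held the lowest value of 19 members.
The mean over the members of log2(CPM + 1) was 6.36 to 6.60 in C group, 6.29 to 6.998 in S group with the highest in S3, and 6.32 to 7.11 in O group with the highest in O4. The erythroid level of S3, 10.6, lay within the range of C group. Plasmacytoid dendritic cells are a known source of type I interferon, and their markers summed to 228 to 303 CPM in C group, 221 to 409 CPM in S group and 192 to 293 CPM in O group. The mean of log2(CPM + 1) over these markers was 3.138 in S3 and 3.156 in O4, beside 3.139 to 3.77 in C group. Whether the erythroid or the dendritic cell markers have a part in the levels of S3 and O4 was not tested.
In platelets O3 held 22 of 43 members (51.2%, all genes 13.8%) above all of C group and O5 17 of 43 members (39.5%, all genes 22.6%), while 25 of 43 members (58.1%, all genes 32.6%) in O1 and 17 of 43 members (39.5%, all genes 17.5%) in S3 lay below. S2 held 11 of 43 members (25.6%, all genes 9.17%) above and 0 of 43 members (0%, all genes 9.59%) below, S5 5 of 43 members (11.6%, all genes 25.7%) above, and O1 5 of 43 members (11.6%, all genes 26%) above. O1 held the lowest value of 20 members and the highest Isg15, Rsad2 and Oas3. The mean level of the members was 4.98 to 5.31 in C group, 4.87 to 5.40 in S group and 4.67 to 5.52 in O group.

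Last, the group differences were compared between the tissues as an interaction of tissue and group over all 30 libraries. At an unadjusted P of 0.05, 2 of 43 members passed for S group against C group (all genes 5.38%), 3 for S group against O group (all genes 13.6%) and 3 for O group against C group (all genes 6.59%). None passed with adjustment in edgeR, and DESeq2 called 0, 1 (Ly6e) and 0. The difference of Ly6e was larger in platelets than in PBMCs, by 0.60 (SE 0.24, adjusted P = 0.887) on the log2 scale for S group against C group and by 0.89 (SE 0.24, adjusted P = 0.183) for S group against O group (edgeR). In PBMCs Ly6e had means of 1252 ± 93.9, 1246 ± 68.4 and 1150.5 ± 118 CPM (SD, n = 5) in S, C and O group.
For O group against C group the difference in platelets minus that in PBMCs was -3.59 (SE 1.15, adjusted P = 0.537) for Rsad2, -2.90 (SE 1.00, adjusted P = 0.548) for Isg15 and 0.65 (SE 0.25, adjusted P = 0.611) for Eif2ak2 (edgeR), the last of which was lost without platelet C1 or platelet O5. Without PBMC O1 Rsad2 was at -2.04 and Isg15 at -2.21, and without platelet O1 they were at -5.22 and -4.20. For S group against O group it was 2.51 (SE 1.14, adjusted P = 0.328) for Rsad2, and 0.97 (adjusted P = 0.703) without PBMC O1. Of the 30 fits that left out 1 library, 8 lost this call. Ifi35 at -0.41 (SE 0.20, adjusted P = 0.914) for S group against C group and Ifit3b at -0.94 (SE 0.46, adjusted P = 0.367) for S group against O group lay near the threshold, and lost it in 13 and in 22 of the 30 fits that left out 1 library. RLE factors in place of TMM moved the median of all genes by 0.14 for S group against O group and by -0.12 for O group against C group, on the log2 scale, and these interactions are relative to that shift. With the library number within each group as a block the call on Ifi35 was lost, at -0.38 (adjusted P = 0.998) in edgeR, and the other 7 calls held.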

How the data were processed

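Platelet and PBMC RNA of pooled mice was sequenced as poly(A) libraries, 5 per group and tissue. The authors aligned reads with HISAT2 2.0.5 and counted them per gene with featureCounts 1.5.0-p3, and the deposited values are these raw counts, not normalized (the versions, and DESeq2 1.16.1, are from the submitters' processing notes). The notes name mm9, whereas 54409 of the 54532 gene identifiers are in GENCODE M21 (GRCm38), whose positions and transcript lengths are used here. The tissue of a library was taken from its title and source name (platelet samples carry a PBMC tag as cell type). Pool sizes are those of the sample records, from which the methods of the study differ slightly for S group platelets.

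The members and all lists were chosen with earlier results of these data known. Groups were compared in pairs, with only their own libraries in the fit, by edgeR 4.0.16 (R 4.3.3, filterByExpr, TMM, quasi-likelihood F test, two-sided P), at an unadjusted P of 0.05 (the study states a P of 0.05) and with Benjamini-Hochberg adjustment over all genes tested. Tissues and interactions were tested over all 30 libraries. SE is the size of the log2 fold change divided by the square root of F. Log2 levels per library used a pseudocount of 1. Named with values are members past the threshold or with the 3 smallest P of a comparison, the 5 largest and 5 smallest tissue differences, the 5 highest and 3 lowest levels per length, Ly6e and 2 pairs of near copies, and pathway genes outside the members past the threshold. Values in each library are given for the 6 smallest P per tissue. Isg15 and Rsad2 in platelets, Stat2, the sensors and the members named for S3 and O4 were added after their values were seen. Alternatives were DESeq2 1.42.0, voom with quality weights (limma 3.58.1), no filter beyond 1 count, RLE factors, a replicate block, all 3 groups in 1 fit, a leukocyte marker covariate and leaving out each library. The erythroid covariate and slopes, the fits without O1 and O4 of PBMCs and the promoter search were added after the data were seen. The tests were tried on simulated data. No libraries of a group agreed within sampling noise (smallest chi-square per degree of freedom 10.2). Same-numbered PBMC libraries of S group and C group deviated together (correlations of 0.288 to 0.574 in 5 of 5 pairs), so the replicate block is given for that comparison, and in every other comparison of groups within a tissue at least 1 pair was not above 0.1.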

Additional observations from a re-analysis of the deposited data

Results flagged for a closer look

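In groups of 5 libraries, a lone library stood apart from the rest by Dixon's criterion in 5 of the 48 groups examined, all of them in Isg15 or Rsad2. The groups examined were the C, S and O group of each tissue, for the members' mean level and for the 6 genes with the smallest P of that tissue, and in platelets also for Isg15 and Rsad2, which were added after their values were seen. Genes were thus taken by small P or after a look at their values. Their values were CPM and not on a log scale, so no chance rate applies to this count. PBMC S3 stood apart in Isg15, at 177 CPM beside 50.1 to 60.3 CPM in the other S group libraries, and in Rsad2, at 292 CPM beside 77.5 to 131 CPM. PBMC O1 stood apart in Rsad2, at 5918 CPM beside 142 to 1347 CPM in the other O group libraries. Platelet O1 stood apart in Isg15, at 1047 CPM beside 62.8 to 297 CPM, and in Rsad2, at 2583 CPM beside 144 to 529 CPM.

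A group difference differed between platelets and PBMCs at an unadjusted P of 0.05 in 6 of the 43 members, and none did after adjustment in edgeR. By comparison these were 2 (S group against C group), 3 (S group against O group) and 3 (O group against C group) members, beside 5.38%, 13.6% and 6.59% of all genes. The difference in platelets minus that in PBMCs, on the log2 scale, was 0.60 for Ly6e and -0.41 for Ifi35 in S group against C group. It was 0.89 for Ly6e, 2.51 for Rsad2 and -0.94 for Ifit3b in S group against O group, and 0.65 for Eif2ak2, -3.59 for Rsad2 and -2.90 for Isg15 in O group against C group.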

How the results depend on the processing

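The number of members past the unadjusted threshold was small and moved with the setting. Shares of all genes past a threshold were taken in the main fits alone. Whether a change in the count under an alternative is particular to the members is therefore not known. For S group against C group in platelets it was 1 and became 3 with every gene of at least 1 count, 2 in voom, 0 with the leukocyte covariate and 2 with the erythroid one. For O group against C group in platelets it was 1 and became 3 in DESeq2, 2 with every counted gene, 4 in voom, 3 with all 3 groups in 1 fit, 2 with the leukocyte and 4 with the erythroid covariate. In PBMCs it went from 1 to 0 in voom and 0 with all 3 groups for S group against C group, from 3 to 5 in voom and 0 with the erythroid covariate for S group against O group, and from 4 to 0 with that covariate for O group against C group, where DESeq2 and voom gave 6 each. The interaction for S group against C group went from 2 to 1 in DESeq2, with every counted gene and with RLE factors. The cause was not tested.

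With the replicate number as a block the count became 3 (S group against O group) and 3 (O group against C group) in platelets, 3 (S group against C group), 4 (S group against O group) and 7 (O group against C group) in PBMCs, and 1 and 5 in the interactions for S group against C group and O group. Elsewhere within a tissue the labels give only the number, at least 1 of 5 pairs was not over 0.1, and whether a number marks a shared experiment is not known. In O group and C group of platelets and in S group and O group of PBMCs 4 of 5 libraries correlated best with their own number. Between tissues the block is the number within a group, and in O group, whose pools are of equal size in both tissues, same-numbered platelet and PBMC libraries had a median correlation of 0.372, with 4 of 5 over 0.1.

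With the erythroid covariate in PBMCs the direction turned for Isg15 (0.33), Rsad2 (0.52) and Ly6e (-0.031) in S group against O group, and for Isg15 (-0.27), Rsad2 (-0.43), Oas3 (-0.13) and Ly6e (0.057) in O group against C group. Ly6e of PBMCs, S group against C group, was at -0.0066 in voom, -0.01 without C2 and between -0.021 without S1 and 0.059 without S2 over all fits that left out 1 library.

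Leaving out 1 library at a time, the count of members ran in platelets over 1 to 5 (S group against C group), 1 to 7 (S group against O group) and 1 to 5 (O group against C group), in PBMCs over 0 to 3, 2 to 6 and 2 to 6, between tissues over 28 to 31, in the 3 interactions over 1 to 2, 1 to 6 and 2 to 5, and in the erythroid slopes over 3 to 6 in platelets and 2 to 3 in PBMCs. The interferon ligands, with 9 counts in all platelet libraries together, allowed no comparison of groups.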
